A study of Homo sapiens with 12 samples.

Results

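The 77 genes of cytosolic ribosomal proteins in the RNA-Seq dataset were followed across 4 HEK293T lines that differ in the EZH2 they carry. Members were taken by symbol: RPL or RPS with a number and at most a letter suffix, together with RPSA, RPLP0, RPLP1 and RPLP2, and without RPS27L and the RPS6 kinases. The rule found 46 genes of the large subunit and 31 of the small subunit among 14438 genes, and it used no measured value. All 77 members were among the 14263 genes tested, from which 175 genes at 0 throughout a line were left out.

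HEK293T is a human embryonic kidney cell line. Each line was infected with lentivirus carrying EZH2 WT, the GOF mutants EZH2 Y641F or EZH2 A677G, or the LOF mutant EZH2 H689A/F667I, and was selected with blasticidin. The lines are called WT, Y641F, A677G and H689A/F667I here. EZH2 is the methyltransferase subunit of PRC2, and the cells' own EZH2 gene stayed in place in all lines, the WT line included. Each mutant is represented by a single stable line with 3 replicates, so that a property of the line and an effect of its mutation cannot be told apart. Nothing in the labels says that replicates came from separate infections, and p-values measure the spread between these samples.

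A ribosomal protein is made in equal numbers with its partners, because each ribosome holds a single copy of nearly every one. Their mRNAs are among the most abundant of a growing cell and begin with a C followed by a run of pyrimidines, the terminal oligopyrimidine (TOP) tract, through which LARP1 and the mTOR pathway set their translation and stability. The genes are transcribed at a high and steady rate, and MYC is a known activator of them. Loss of a copy of RPS19, RPL5 or RPL11 is a known cause of Diamond-Blackfan anaemia, and unassembled RPL5 and RPL11 bind MDM2.

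The TOP tract was the sequence feature that members shared and that the rule did not use. RefSeq promoters on GRCh38.p14 were matched for 62 of the 77 members. A run of at least 5 pyrimidines that includes the annotated start base was found in 44 of them (71%), against 9.8% of all 27305 promoters and 8.96% of 67 promoters of mitochondrial ribosomal protein genes. It was found in 72.2% of 18 promoters of other mRNAs, from a list chosen for having a TOP tract. The share was 57.1% of 14 for snoRNA hosts and 37.5% of 8 for the paralogs and fusions outside the rule. A C at the start base followed by pyrimidines, at least 5 in all, was found in 67.7% of the members and 4.04% of all promoters. The letters CTTTC lay within 15 bases of the start in 43.5% of the members on the coding strand and 1.61% on the other strand, against 4.18% and 3.17% of all promoters. CTTTC is itself made of pyrimidines and overlaps the run. These matches describe the annotated starts and are no measurement of start site use in HEK293T. The windows of 30 bases around the start, 5′ to 3′ on the gene's strand, are shown for a gene of high level (RPS18), for the member of the shortest coding length (RPL41), for members on which the comparisons turn (RPS15, RPL12, RPLP2, RPL22), and for 2 genes outside the rule that changed (RPS27L, RPL22L1) with the member RPS27. Capitals mark the pyrimidine run that includes the start base.
RPS18 (chr6:33272060-33272089, plus strand): cgcgtcacttccgCTCTCTCTTCCacagga
RPL41 (chr12:56116618-56116647, plus strand): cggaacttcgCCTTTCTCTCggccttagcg
RPS15 (chr19:1438381-1438410, plus strand): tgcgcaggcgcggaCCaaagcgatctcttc
RPL12 (chr9:127451392-127451421, minus strand): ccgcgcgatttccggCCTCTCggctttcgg
RPLP2 (chr11:809952-809981, plus strand): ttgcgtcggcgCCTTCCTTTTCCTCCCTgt
RPL22 (chr1:6199581-6199610, minus strand): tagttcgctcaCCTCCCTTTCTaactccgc
RPL22L1 (chr3:170870181-170870210, minus strand): cgcggccgtagCTTCCTCTCTgctctcgcg
RPS27 (chr1:153990747-153990776, plus strand): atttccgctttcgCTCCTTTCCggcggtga
RPS27L (chr15:63157463-63157492, minus strand): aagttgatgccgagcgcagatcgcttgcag
The run held 17 bases in RPLP2, 11 in RPS18 and RPL22, 10 in RPL41 and RPL22L1, and 6 in RPL12. In RPS15 it held 2 bases at the annotated start, and in RPS27L the start base was no pyrimidine, whereas RPS27 had a run of 9.

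Total counts per sample ranged from 32137700 to 44562413. EZH2 itself was at 158 ± 4.32 CPM (counts scaled to library size and by TMM, as CPM, SD, n = 3) in WT, 218 ± 9.61 in Y641F, 173 ± 8.57 in A677G and 208 ± 2.03 in H689A/F667I, and a count per symbol does not separate the introduced EZH2 from the cells' own. Of 12 markers of embryonic kidney and neural-like cells fixed for HEK293T, 10 were in the table, with a summed level of 659 to 835 CPM. Of the markers of lymphocytes 1 of 6 was in the table (0.510 to 1.30 CPM), of fibroblasts 4 of 7 (up to 27.6 CPM), of endothelium 1 of 5 (0.103 to 0.794 CPM), and of hepatocytes 0 of 4. No pair of replicates held identical counts. Replicates of Y641F differed most, with a chi-square per degree of freedom of 10.3 to 14.8 against 3.33 to 7.09 in the other lines.

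Ribosomal protein genes took the same share of the counts in every line within the spread of the replicates. In WT the share was 6.25%, 6.36% and 6.23%, with a mean of 6.28 ± 0.0709% (SD, n = 3). It was 6.34%, 6.42% and 6.22% in Y641F (6.33 ± 0.0981%), 6.42%, 6.32% and 6.37% in A677G (6.37 ± 0.0490%), and 6.49%, 6.32% and 6.27% in H689A/F667I (6.36 ± 0.116%). The replicates of every line overlapped with those of every other. The large subunit took 3.74 ± 0.0371% in WT and between 3.77% and 3.79% on average in the mutants, and the small subunit took 2.54 ± 0.0343% and between 2.55% and 2.58%. A share within a library is relative, and the amount of ribosomal protein mRNA per cell was not measured.

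**Figure D1:**
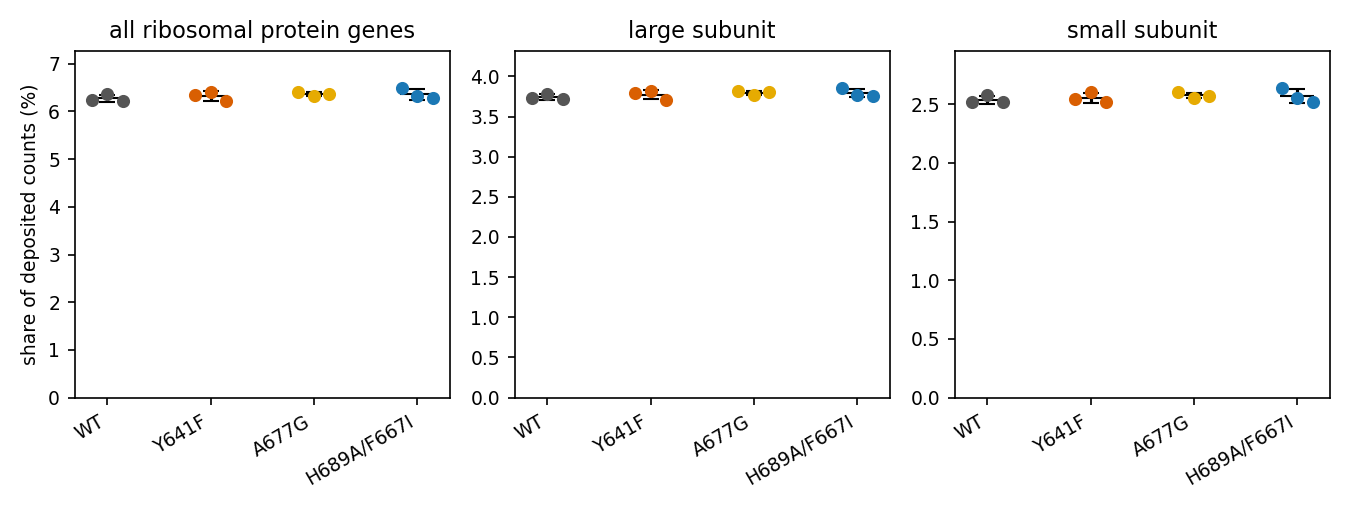
Share of the deposited counts (%, vertical axis from 0) taken by all 77 ribosomal protein genes, by the large subunit and by the small subunit. Points are samples, and the bar is the mean ± SD of the 3 replicates of a line. All samples lie between 6.22% and 6.49% in the left panel.

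Within that share, members differed widely in level. Apart from 3 genes, members lay between 155 CPM (RPL28) and 2170 CPM (RPS2) on average over the 12 samples. Per kilobase of the canonical transcript, RPS2 at 2296 and RPS18 at 2072 CPM per kilobase were among the highest, both of the small subunit. In WT they were at 2278 ± 94.5 and 2036 ± 44.6 CPM per kilobase (SD, n = 3), and in H689A/F667I at 2302 ± 53.0 and 2109 ± 116. In Y641F they were at 2267 ± 79.2 and 2060 ± 69.9. The order depended on the length used. Per kilobase of coding length, an alternative chosen after the levels were seen, RPL41 was highest at 6305, followed by RPL39 at 4486 and RPL37A at 2664, all of the large subunit and encoding very short proteins. The fold from the 10th to the 90th percentile of the members was 7.66 per canonical transcript and 2.45 per coding length.

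RPS10, RPL17 and RPL36A stood far below all other members, on either length. Their mean levels were 4.69, 6.71 and 7.13 CPM, and their counts per sample ranged from 135 to 229, from 227 to 300 and from 211 to 363. Per kilobase of canonical transcript they were at 7.98, 10.9 and 9.37 CPM, and the next member, RPL28, was at 36.7. Each shares exons with an annotated read-through gene, RPS10-NUDT3, RPL17-C18orf32 and RPL36A-HNRNPH2. These hold 31.5%, 24.9% and 8.4% of the 2318, 2451 and 3965 exon bases of all annotated transcripts of the member. The canonical transcripts are much shorter, at 588, 614 and 761 bases. The shared part of the canonical transcript was not computed and may be far larger than these percentages. None of these read-through genes was in the table, and how the authors assigned reads that fit both was not tested. Their levels are given here as uncertain. In addition, GENCODE names 1588 pseudogenes of members, at least 1 for each of the 77, so that reads that fit a member and its copy may have been divided between them.

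**Figure D2:**
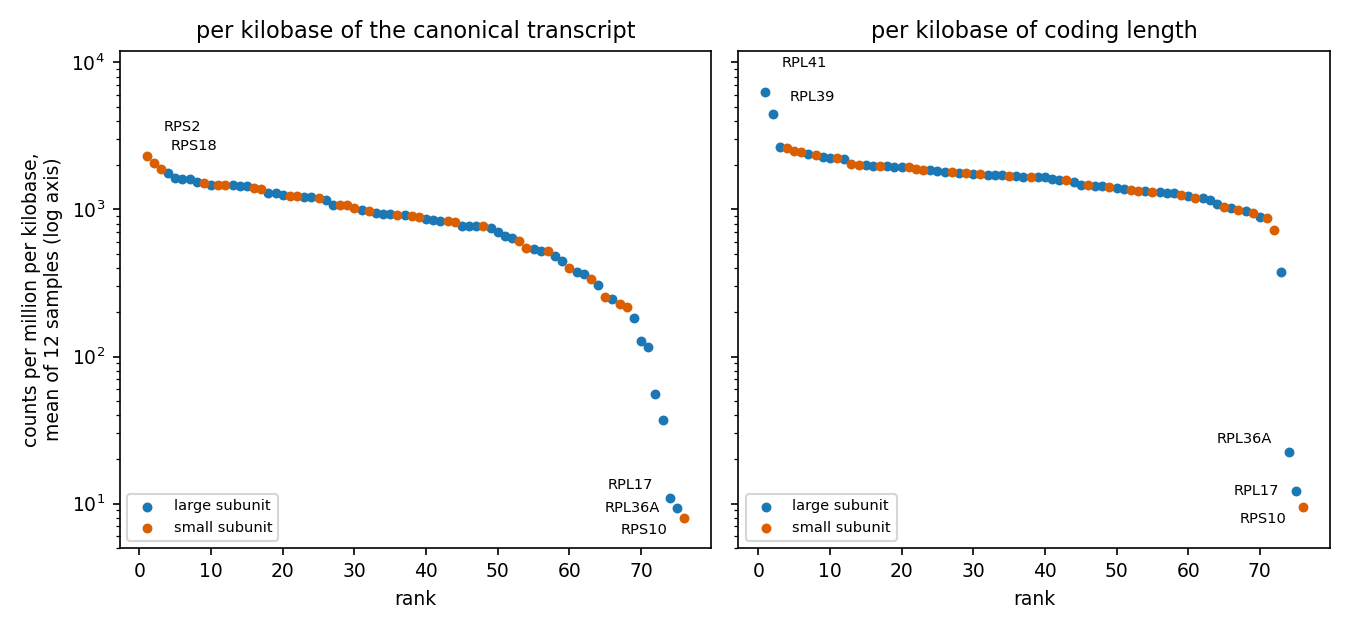
The 76 members shown, ranked by mean level over the 12 samples, in CPM per kilobase on a log axis, per canonical transcript (left) and per coding length (right), with the 2 highest and the 3 lowest of them named. RPS10, RPL17 and RPL36A lie below all others in both panels, while the highest members differ between them.

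Members varied little between samples. The coefficient of variation over all 12 samples was lowest for RPS4X, the X-linked small subunit protein, at 1.34%, and for RPL23 at 1.39%. It was 8.40% for RPL28, 8.17% for RPS29 and 5.12% for RPS9, the highest among members above 100 CPM. RPL28 ranged from 136 to 183 CPM and RPS29 from 261 to 334 CPM, and in both the lines overlapped. The 3 members of few counts reached 6.72% (RPL17), 9.77% (RPL36A) and 13.9% (RPS10). RPL23, RPS4X, RPL28, RPS29 and RPS9 are named for these values.

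The mutants were then tested against WT. The test was edgeR's quasi-likelihood F-test, with p-values adjusted over 14263 genes by Benjamini and Hochberg's method. In Y641F, 0 of 77 members rose and 1 fell at an adjusted p under 0.05, where 7.68% of all genes passed. The median log2 fold change of the members was 0.00087, and 0.0025 over all genes. It was -0.026 without replicate 2 of Y641F and 0.023 without replicate 3 of that line. At an unadjusted p under 0.05 there were 3 members, and 19.2% of all genes. All replicates of Y641F lay above all those of WT for 3 members (RPL22, RPS20, RPS3A), against 9.28% of all genes, and below them for 1 member (RPS15), against 11.7% of all genes. The 95% interval of the fold change lay within ± 0.2 for 74 of the 77 members. The other 3 were RPS10, RPL17 and RPL36A.

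The member that fell was RPS15, a protein of the small subunit at chr19:1438358-1440495 on the plus strand (GRCh38, ENSG00000115268), whose start lacks the run of pyrimidines shown above. It was at 638, 639 and 622 CPM in WT and at 580, 611 and 567 CPM in Y641F. In A677G it was at 640, 645 and 673 CPM and in H689A/F667I at 627, 608 and 593 CPM. Y641F was thus below WT in every replicate, and the LOF line overlapped with WT. A677G lay above WT in every replicate but only just, with its lowest at 639.8 and the highest of WT at 639.2 CPM. RPS15 was not called in A677G. The log2 fold change of RPS15 in Y641F was -0.11 (SE 0.0351, 95% interval -0.18 to -0.04, adjusted p = 0.0413 in edgeR's quasi-likelihood test). The call was lost with only the compared lines in the fit (adjusted p = 0.125 in edgeR), with each sample's GC trend removed (-0.09, adjusted p = 0.0631), and when any of 8 of the 12 samples was left out, with adjusted p between 0.0508 and 0.177. It held without replicate 2 of Y641F, replicate 3 of A677G, or replicate 1 or 3 of H689A/F667I, and was lost without any other sample. The canonical transcript of RPS15 has a GC content of 61.3%, and the 3479 genes in the highest of 4 equal classes of GC content had a median of -0.021 in this comparison. The part of GC content in the change of RPS15 was not tested further.

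In A677G, 0 of 77 members changed in edgeR's quasi-likelihood test, where 8.55% of all genes passed. By edgeR's exact test and by DESeq2 the count was also 0. At an unadjusted p under 0.05 there were 2 members in each of the 3 tests, and 20.4% of all genes in the quasi-likelihood test. The estimate was above 0 for 64 of the members, with a median log2 fold change of 0.029 and of 0.0045 over all genes. With upper-quartile factors these medians were 0.0091 and -0.015, and without replicate 3 of WT they were 0.016 and 0.0035. All 3 replicates lay above WT for 14 members, against 12.5% of all genes. They lay below WT for RPL5 alone, against 14.7% of all genes. Intervals lay within ± 0.2 for 72 members, and the highest upper bound among the 74 members above 100 CPM was 0.24.

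In H689A/F667I, 0 of 77 members changed, where 0.301% of all genes passed in edgeR's quasi-likelihood test. By edgeR's exact test and by DESeq2 the count was also 0, where 76 and 63 of all genes passed. At an unadjusted p under 0.05 they gave 5 and 9 members. The share of all genes at that threshold was not computed for these 2 tests. In the quasi-likelihood test, 6 members had an unadjusted p under 0.05, all with estimates above 0, and 8.3% of all genes did. The estimate was above 0 for 62 members, and the median log2 fold change was 0.025, against 0.0024 over all genes. Without replicate 1 of H689A/F667I, the sample with the highest share of counts in these genes, the median was 0.0013 with 41 members above 0, and without replicate 3 of that line it was 0.042. With the trend with transcript length removed it was 0.011, with 55 members above 0. All replicates lay above WT for 10 members, against 7.89% of all genes, and below it for RPL11 and RPLP2, against 7.14% of all genes. Intervals lay within ± 0.2 for 74 members. The 3 comparisons share the WT samples.

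**Figure D3:**
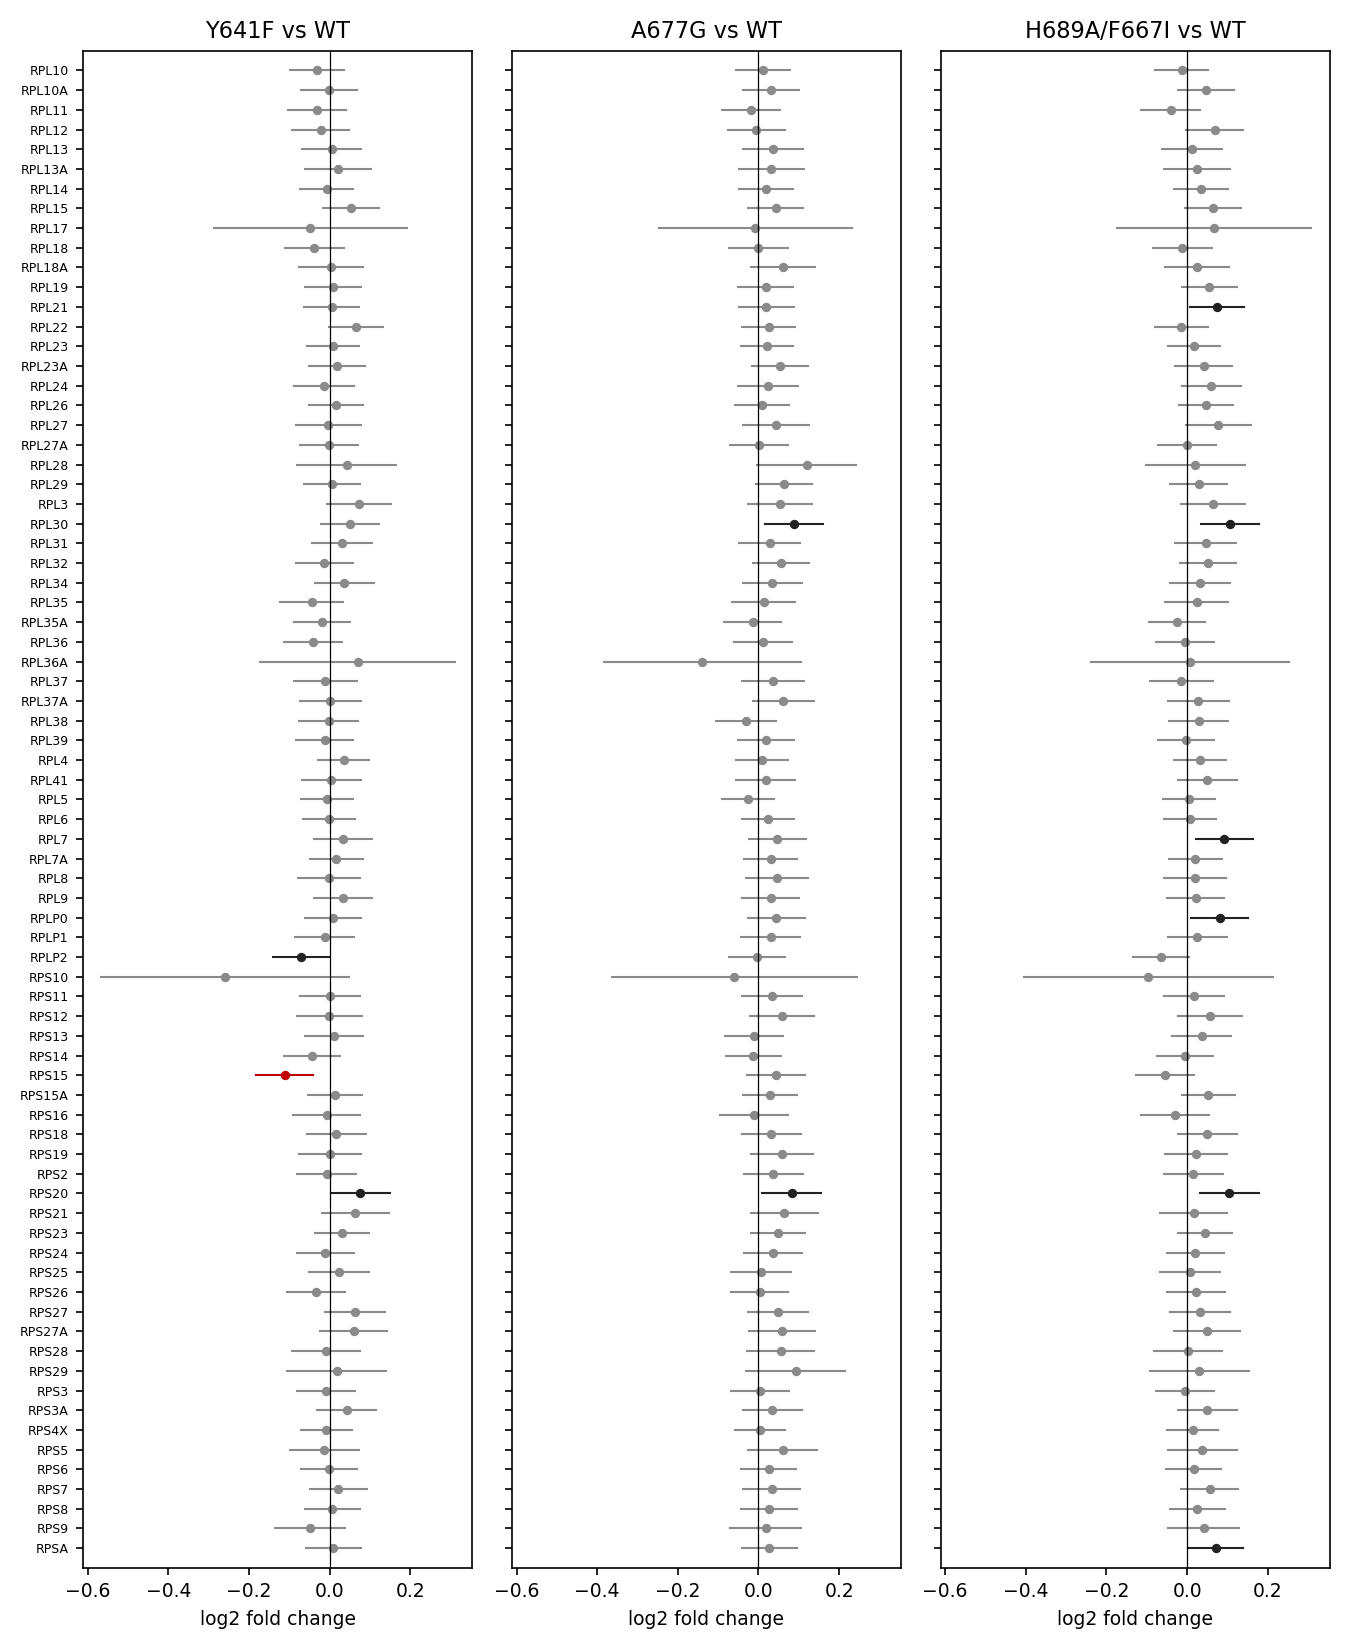
Log2 fold change against WT with its 95% interval for 76 of the members (rows), in the 3 mutant lines (panels, same horizontal axis). Red marks an adjusted p under 0.05 (RPS15 in Y641F), black an unadjusted p under 0.05, and grey all others. In Y641F the intervals that leave ± 0.2 belong to RPS10, RPL17 and RPL36A. In A677G an interval of a member above 100 CPM also reaches 0.24.

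In the comparisons with WT, RPL30 and RPS20 were the members nearest to the threshold without passing it. RPL30, a large subunit protein at chr8:98024851-98046469, was at 414, 412 and 403 CPM in WT, 424, 443 and 405 in Y641F, 441, 424 and 441 in A677G, and 450, 430 and 442 in H689A/F667I. The last 2 lines lay above WT in every replicate and Y641F overlapped with it. Its log2 fold change was 0.09 in A677G (SE 0.0357, adjusted p = 0.132 in edgeR) and 0.11 in H689A/F667I (SE 0.0358, adjusted p = 0.319). RPS20, a small subunit protein at chr8:56067254-56074510, was at 454, 458 and 461 CPM in WT, 468, 508 and 470 in Y641F, 480, 500 and 473 in A677G, and 506, 493 and 477 in H689A/F667I. All mutant replicates lay above all those of WT. Its adjusted p in edgeR was 0.246, 0.179 and 0.344 in the 3 lines, with log2 fold changes of 0.08, 0.08 and 0.10. With only A677G and WT in the fit, both RPL30 and RPS20 passed in that line. That fit called more of all genes, 1618 against 1219 in the main fit. RPL30, RPS20, RPL7 and RPL8 lie on chromosome 8, and their median log2 fold change in H689A/F667I was 0.10, with all 4 above 0. The other 477 genes tested on that chromosome had a median of 0.028 in the same line, with 60.2% above 0. In A677G the 4 members had a median of 0.064, all above 0, and the other genes 0.0026 with 51.4% above 0, and in Y641F the medians were 0.042, with 3 members above 0, and 0.017. This chromosome was looked at after the values of RPL30 and RPS20 were seen. The part of the chromosome in these values was not tested.

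The stalk of the large subunit, which recruits translation factors, is built from RPLP0, RPLP1 and RPLP2, and these members are described for that role. RPLP0 was at 1619, 1613 and 1537 CPM in WT and 1734, 1655 and 1654 CPM in H689A/F667I, without overlap, with a log2 fold change of 0.08 and an adjusted p of 0.481 in edgeR. RPLP2 was at 476, 469 and 458 CPM in WT and 452, 447 and 443 CPM in H689A/F667I, also without overlap but lower. Its log2 fold change in that line was -0.07, with an adjusted p of 0.641 in edgeR. In Y641F the mean of RPLP2 was as low (434, 466 and 438 CPM), with overlap with WT, and in A677G it was at 472, 464 and 465 CPM. RPLP1 overlapped between all lines, with means of 607 to 625 CPM. The stalk genes thus had estimates in both directions, and none passed the test.

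RPL5 and RPL11, the MDM2-binding members, and RPS19 are described for their known roles. RPL5 was at 1483 ± 7.41 CPM in WT and 1456 ± 12.2 in A677G (SD, n = 3), with a log2 fold change of -0.03 and an adjusted p of 0.719 in edgeR. RPL11 was at 801 ± 11.3 CPM in WT and 779 ± 7.75 in H689A/F667I, with a log2 fold change of -0.04 and an adjusted p of 0.818. RPS19 lay between 797 and 830 CPM on average in all lines. RPS6, the substrate of the S6 kinases, had means from 1458 to 1485 CPM. None of these genes passed in any mutant line.

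The mean of both GOF lines was compared with the LOF line, the comparison in which most genes of the series passed. In edgeR's quasi-likelihood test 0 of 77 members changed, against 12.6% of all genes, and 3 members had an unadjusted p under 0.05 against 23.8% of all genes. The exact test was not run on this contrast of 3 lines, and DESeq2 called 2 members (RPL12 lower, RPL22 higher). DESeq2 called 1844 of all genes in this contrast. RPL12, a protein at the base of the stalk encoded at chr9:127447674-127451406, was nearest to the threshold. It was at 585, 596 and 573 CPM in WT, 573, 599 and 555 in Y641F, 582, 577 and 589 in A677G, and 631, 598 and 611 in H689A/F667I. The LOF line overlapped with Y641F in its lowest replicate only. The log2 difference of RPL12 was -0.08 (SE 0.0298, adjusted p = 0.0645 in edgeR), and it passed with upper-quartile factors (-0.10, adjusted p = 0.0172) and without replicate 1 or replicate 2 of Y641F (adjusted p = 0.0463 and 0.0184). RPL22 was at 377, 368 and 368 CPM in WT, 388, 392 and 385 in Y641F, 376, 381 and 376 in A677G, and 368, 368 and 366 in H689A/F667I.

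Y641F was also compared with A677G. In edgeR's quasi-likelihood test 0 of 77 members changed, against 0.0841% of all genes, and 1 member, RPS15, had an unadjusted p under 0.05, against 6.91% of all genes. Its log2 difference was -0.16 (SE 0.0351, adjusted p = 0.0743), with no overlap between the 586 ± 22.5 CPM of Y641F and the 653 ± 17.9 CPM of A677G (SD, n = 3). By edgeR's exact test and by DESeq2, RPS15 was the single member called, among 23 and 18 of all genes called. The median over the members was -0.020, with 17 of 77 estimates above 0, against 0.000013 over all genes. It rested on single samples: without replicate 3 of Y641F it was -0.0029 with 35 members above 0, without replicate 2 of Y641F it was -0.047 with 6 above 0, and without replicate 2 of A677G it was -0.032. It was -0.0062 with library totals, where the median over all genes was 0.014, and -0.011 with the length trend removed.

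**Figure D4:**
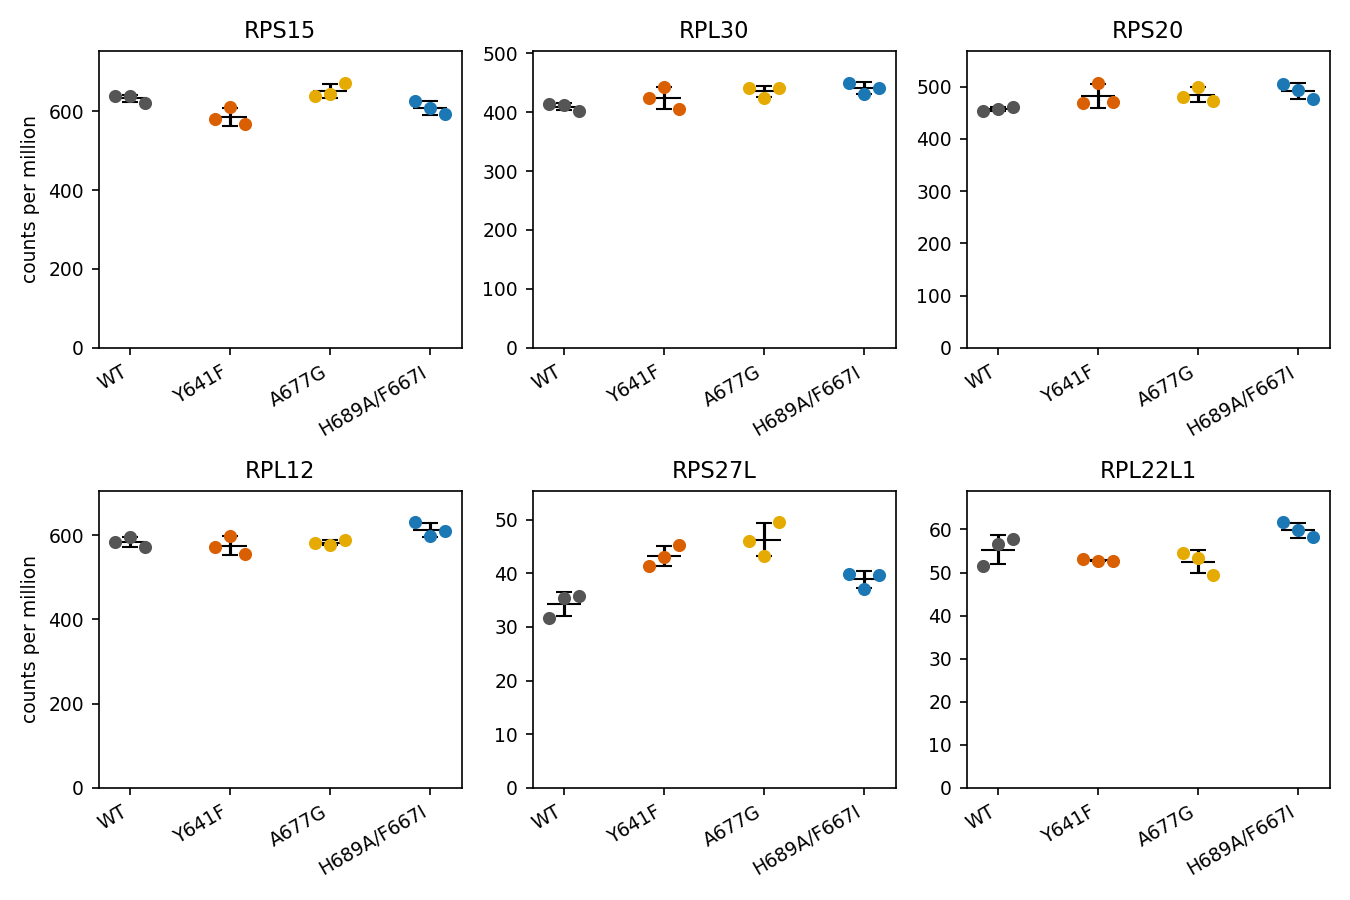
CPM (vertical axes from 0) in each of the 12 samples for 4 members and 2 genes outside the rule, with the mean ± SD of each line (n = 3). RPS15 is lowest in Y641F, while RPS27L is higher in all mutant replicates than in WT and RPL22L1 is highest in H689A/F667I.

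The small changes were seen against a measurement that was narrow for these genes. Over the 74 members above 100 CPM, log2 fold changes against WT ran from -0.11 to 0.08 in Y641F, from -0.03 to 0.12 in A677G and from -0.07 to 0.11 in H689A/F667I. The median SE over these 74 members was 0.0356 in each comparison with WT. Among the other 2058 genes above 100 CPM, 4.23%, 4.71% and 0.486% were called in the same comparisons, 8.21% between the GOF mean and the LOF line, and 0.194% between the GOF lines. The median absolute log2 fold change at that level was 0.014 for the members and 0.038 for the other genes in Y641F, 0.030 and 0.036 in A677G, and 0.030 and 0.032 in H689A/F667I.

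Of the genes outside the rule listed as paralogs or fusions of ribosomal proteins, 10 of 12 were in the table, and 2 of them changed in at least 1 comparison. RPS27L, a paralog of RPS27 known as a target of p53, lies at chr15:63125872-63158021. It was at 31.8, 35.4 and 35.8 CPM in WT, 41.4, 43.2 and 45.3 in Y641F, 46.1, 43.3 and 49.5 in A677G, and 40.0, 37.1 and 39.7 in H689A/F667I. All mutant replicates lay above those of WT. It rose by a log2 fold change of 0.33 in Y641F (SE 0.0588, adjusted p = 1.31e-04 in edgeR) and 0.43 in A677G (SE 0.0586, adjusted p = 1.96e-06), and was at 0.18 in H689A/F667I (adjusted p = 0.305). RPS27 itself, with 505 ± 9.52 CPM in WT and 527 ± 26.0 and 522 ± 3.61 CPM in the GOF lines, did not pass (log2 fold changes 0.06 and 0.05).

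RPL22L1, the paralog of RPL22, lies at chr3:170864875-170870208. It was at 51.4, 56.7 and 57.9 CPM in WT, 53.0, 52.7 and 52.6 in Y641F, 54.6, 53.4 and 49.5 in A677G, and 61.6, 59.8 and 58.2 in H689A/F667I. The LOF line lay above all other samples. The GOF mean was below the LOF line by a log2 difference of -0.19 (SE 0.0435, adjusted p = 0.00254 in edgeR), while no mutant passed against WT. FAU, whose product is a ribosomal protein fused to a ubiquitin-like protein, was at 304 CPM on average and passed in no comparison. RPL7L1, RPL26L1, RPL36AL, RPL39L, RSL24D1 and RPL13AP5, which is annotated as a processed pseudogene, passed in none either.

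Genes that act with the ribosomal proteins were counted from lists written with earlier results of these data known. A list of 26 other mRNAs, written as having a TOP tract, includes those of translation factors. Of these 26, VIM was lower in Y641F (-0.12, adjusted p = 0.0187 in edgeR) and TPT1 was higher in A677G (0.11, adjusted p = 0.0396). In H689A/F667I 0 changed, with 2 at an unadjusted p under 0.05. NPM1, named after its values were seen, was lower in the GOF mean than in the LOF line (-0.09, adjusted p = 0.0497). These counts of 1, 1, 0 and 1 stand beside 7.68%, 8.55%, 0.301% and 12.6% of all genes. The 2 at an unadjusted p under 0.05 in H689A/F667I stand beside 8.3% of all genes. The call of TPT1 was lost with upper-quartile factors (adjusted p = 0.105 in edgeR) and without any single sample of WT or A677G or replicate 2 of H689A/F667I (0.0509 to 0.159). The call of VIM was lost with only the compared lines (0.0795) and without replicate 2 of WT or replicate 3 of Y641F. The medians of the list were 0.0015, 0.0036 and -0.0031 against WT. Of 16 noncoding hosts of snoRNAs, 0 changed in any comparison in edgeR. At an unadjusted p under 0.05 against WT there were 2, 3 and 3 of them, beside 19.2%, 20.4% and 8.3% of all genes. Of 19 genes tested for control by MYC, mTOR and LARP1, MYC alone passed against WT. It did so in A677G alone, where 8.55% of all genes passed (-0.19, SE 0.0482, adjusted p = 0.00691 in edgeR). That call was lost without replicate 1 or replicate 2 of WT (adjusted p = 0.0808 and 0.0564 in edgeR). MYC was at 121, 118 and 106 CPM in WT and 101, 101 and 101 CPM in A677G.

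Factors of ribosome biogenesis, which process rRNA and assemble the subunits, had lower medians than the ribosomal proteins in the GOF lines. Of 73 tested, TCOF1, a cofactor of rRNA transcription, fell in Y641F (-0.13, adjusted p = 0.0201 in edgeR). TCOF1 and GNL3L, a nucleolar GTPase, fell in A677G (-0.11 and -0.15, adjusted p = 0.0376 and 0.0201 in edgeR). These counts of 1 and 2 of 73 were below the shares of all genes called there, 7.68% and 8.55%. None of the 73 changed in H689A/F667I in edgeR, with 6 at an unadjusted p under 0.05, and 6 were lower in the GOF mean than in the LOF line. Among all genes, 8.3% had an unadjusted p under 0.05 in H689A/F667I and 12.6% were called between the GOF mean and the LOF line, so that neither count of 6 of 73 exceeded that share. The call of TCOF1 in A677G was lost without any single WT sample or replicate 1 or 2 of A677G (adjusted p of 0.0558 to 0.196 in edgeR), and that of GNL3L without replicate 1 or 3 of WT or any replicate of A677G (0.0518 to 0.135). In Y641F the call of TCOF1 was lost without replicate 1 of WT or replicate 2 of Y641F (0.143 and 0.07). Medians were -0.042, -0.027 and 0.0050 against WT, and -0.040 between the GOF mean and the LOF line. Of 76 mitochondrial ribosomal proteins, MRPL21 fell in Y641F (-0.17), MRPS18B fell in A677G (-0.16) and 0 changed in H689A/F667I in edgeR, with 3 at an unadjusted p under 0.05. Among all genes 7.68%, 8.55% and 0.301% were called, and 8.3% had an unadjusted p under 0.05 in H689A/F667I. The medians of the mitochondrial genes were -0.032, -0.0088 and 0.013 against WT. In the GOF mean, 4 of the 76 (MRPL32, MRPL38, MRPS15 and MRPS5) were lower than in the LOF line, a smaller share than the 12.6% of all genes called there. The mitochondrial genes were named after their values were seen. The difference between the lists was not tested.

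**Figure D5:**
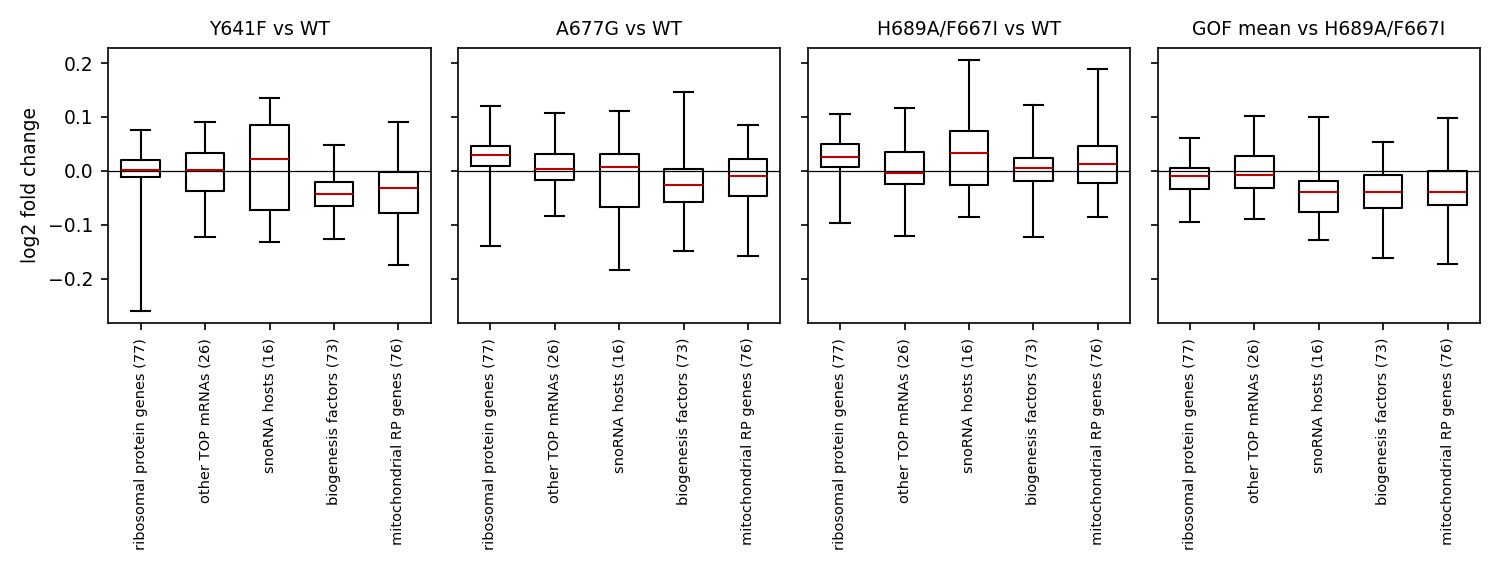
Log2 fold changes of the genes in 5 lists (number of genes in brackets) for the 3 mutant lines against WT and for the GOF mean against H689A/F667I. Boxes span the quartiles with the median in red and whiskers reach the lowest and highest gene, and the box of the ribosomal protein genes lies within ± 0.1 in every panel.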

How the data were processed

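RNA-Seq libraries (TruSeq Stranded mRNA) of 12 samples, 3 per line, were used. Per the study's methods, reads were trimmed with TrimGalore 0.6.5, aligned to GRCh38 with STAR 2.7.9a and quantified with salmon 1.2.0 against a Gencode transcriptome. What the authors deposited were unnormalized whole counts for each gene symbol. The step from salmon to these counts and the filter that left 14438 genes are not given in the sources used here.

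Counts were scaled by TMM and fitted in R 4.3.3 with edgeR 4.0.16 (quasi-likelihood test, 1 coefficient per line, all 12 samples, 14263 genes). The threshold was a Benjamini-Hochberg adjusted p of 0.05. The study names edgeR's exact test, which was an alternative, as was DESeq2 1.42.0. The 175 genes at 0 throughout a line were left out of the tests, and no further filter was applied in the main fit. Intervals are at 95%. Totals ranged from 32137700 to 44562413 counts, and the median SE of the 74 members above 100 CPM was 0.0356 (log2) against WT. Counting alone gave these members a coefficient of variation of 0.346% (RPS2) to 1.30% (RPL28), and is only a part of that SE. Symbols were matched to GENCODE 44, 13272 by name, 805 through an older symbol and 361 not at all. Promoters came from RefSeq. The procedures were tested on simulated data.

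The members and the lists were chosen with earlier results of these data known, so no test over a list was made. Genes were named by a rule: members past the threshold and nearest to it in the 3 comparisons with EZH2 WT and in the GOF mean against the LOF line, the 3 highest and lowest per length, paralogs and fusions, and in each other list the 2 of smallest adjusted p against EZH2 WT. The results of 2 genes under this rule, and an alternative for the share of counts that needs 1 of them, are not reported here. Others are marked in the text as named for a role or after their values were seen.

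Alternatives were the exact test, DESeq2, upper-quartile factors, library totals, TMM without the members, no filter, a minimum of 10 counts per sample, only the compared lines, the replicate block, removal of GC and length trends, each sample left out, and for shares and levels other gene sets, denominators and lengths. The coding length and the leaving out of 3 members of few counts were added after seeing the data.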

Additional observations from a re-analysis of the deposited data

Results flagged for a closer look

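The GOF lines and the LOF line differed for 2 paralogs outside the member rule, by the test of the difference itself. RPS27L was higher in the GOF mean than in EZH2 H689A/F667I by a log2 difference of 0.203 (SE 0.0509, adjusted p = 0.00491 in edgeR's quasi-likelihood test), and without replicate 2 of EZH2 H689A/F667I the difference was 0.17 with an adjusted p of 0.0693. RPL22L1 was lower in the GOF mean by -0.185 (adjusted p = 0.00254 in edgeR), and it stayed past the threshold in every alternative run.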

How the results depend on the processing

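Of the values recomputed under the alternatives, 547 kept their direction and side of the threshold or moved by less than the spread. A further 30 moved, 40 lost and 5 gained significance. For the medians of the members the spread was 0.0329 (log2), larger than the size of the main median in every comparison. A median counted as unmoved can therefore still have changed greatly relative to its size. The sign reversed for 0 fold changes of single named genes, and a change of sign was not counted for the medians. The median of the members in EZH2 Y641F turned from 0.00087 to -0.026 without replicate 2 of that line. Between the GOF mean and the LOF line it turned from -0.0093 to 0.015 without replicate 1 of EZH2 H689A/F667I. The number of members called in EZH2 Y641F fell from 1 to 0 with only the compared lines and with the GC trend removed, with or without the replicate block, and ranged from 0 to 1 when a sample was left out. In EZH2 A677G it rose from 0 to 2 with only the compared lines (RPL30 and RPS20), where 1618 of all genes were called. It ranged from 0 to 1 when a sample was left out (RPL28, without replicate 2 of EZH2 A677G, where 861 of all genes were called). Between the GOF mean and the LOF line it was 2 with DESeq2, 1 with upper-quartile factors, and 0 to 1 when a sample was left out. Of all genes, 1844, 1771 and 1203 to 2105 were called in these settings. Between the GOF lines it was 1 (RPS15) with the exact test, DESeq2, no filter, the GC trend removed with or without the replicate block, and the length trend removed, and 0 to 1 when a sample was left out. With all samples in the fit, the settings that called RPS15 called 14 to 178 of all genes. The cause of these differences was not tested. In EZH2 H689A/F667I it stayed at 0. The share of counts became 7.32%, 7.36%, 7.43% and 7.46% in the 4 lines without the 10 most counted other genes, which shrinks the denominator. The fold between the 10th and 90th percentile of levels was 8.14 with the longest transcript and 2.45 with coding length. The median of the members ranged from -0.026 to 0.023 in EZH2 Y641F, from 0.016 to 0.037 in EZH2 A677G and from 0.0013 to 0.042 in EZH2 H689A/F667I when a sample was left out. The replicate numbers did not pair the samples: the correlation of deviations between same-numbered samples lay between -0.0557 and 0.0501, and the replicate block left the counts of members called at 1, 0, 0, 0 and 0. Outside the members, calls in edgeR were lost when single samples were left out: MYC in EZH2 A677G without replicate 1 or 2 of EZH2 WT (adjusted p 0.0808 and 0.0564), VIM in EZH2 Y641F without EZH2 WT replicate 2 or EZH2 Y641F replicate 3 (0.0896 and 0.0646), and TCOF1 in EZH2 Y641F without EZH2 WT replicate 1 or EZH2 Y641F replicate 2 (0.143 and 0.07). In EZH2 A677G the calls of TPT1, TCOF1 and GNL3L were lost without most single samples of the 2 compared lines, with adjusted p of up to 0.159, 0.196 and 0.135.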
